A study of Mus musculus with 4 samples.

Results

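The 8 genes described here encode secreted proteins of the acute-phase and antimicrobial response: Saa3, Hp, Orm1, Chil3, Slpi, Wfdc17, Wfdc21 and Lrg1. They were taken by symbol from the 31053 genes of the count matrices and were read in the 32217 of 40003 barcodes that held 1000 to 40000 unique molecular identifiers (UMIs, each standing for 1 captured RNA molecule) with at most 10% of them from mitochondrial genes. The genes were chosen by their levels in these same libraries, with earlier results of these data known, so the differences between libraries given for them are a description and no support for the choice. Bone from 4 wild-type mice was profiled, 2 kept as controls (Ctrl) and 2 subjected to hindlimb unloading by tail suspension (HLU) for 28 days, with 1 library per mouse. In all 4 mice the marrow was flushed out of the tibiae and femurs, the bone was digested with enzymes and single cells were sequenced with the droplet-based 10x 3′ chemistry. The age of the mice was not settled, because the sources used here give different ages, and their sex was not given for these libraries.

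Acute-phase proteins are secreted in quantity when interleukin-6, interleukin-1 and related cytokines signal infection or injury. The liver makes most of them, and myeloid cells and stromal cells make some of them locally. Neutrophils load antimicrobial proteins into granules as they mature in the marrow, and small secreted protease inhibitors with a whey acidic protein (WAP) domain shield tissue from the proteases released with them. Saa3 is a locally made serum amyloid A, a lipid-binding acute-phase protein. Hp is haptoglobin, which captures free haemoglobin, Orm1 is orosomucoid (alpha-1-acid glycoprotein), a plasma carrier protein, and Lrg1 is leucine-rich alpha-2-glycoprotein, a modulator of transforming growth factor beta signalling. Chil3 (Ym1) is a chitinase-like lectin of neutrophil precursors and alternatively activated macrophages. Slpi is the secretory leukocyte peptidase inhibitor, which inhibits neutrophil elastase, and Wfdc17 and Wfdc21 are small secreted proteins with a WAP domain.

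In the mouse mm10 build, Saa3 lies on the minus strand at chr7:46711998-46715700, Hp on the minus strand at chr8:109575128-109579172, Orm1 on the plus strand at chr4:63344560-63348163 and Chil3 on the minus strand at chr3:106147554-106167564. Slpi lies on the minus strand at chr2:164354070-164389095 and Lrg1 on the minus strand at chr17:56119678-56122001. Wfdc17 (chr11:83703991-83706268) and Wfdc21 (chr11:83746940-83752642) lie on the plus strand of the same chromosome with 40671 bases between them.

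Promoter sequence from RefSeq (GRCm38.p6, the patched form of mm10) was matched by symbol for 5 of the 8 genes: Saa3, Chil3, Slpi, Wfdc17 and Lrg1. The 250 bases before the gene start that RefSeq gives were searched on both strands for letter patterns of 3 factor families that act downstream of interleukin-6 and interleukin-1. The pattern TTNNGNAA, for C/EBP factors, was in 4 of the 5 promoters (Saa3, Chil3, Slpi and Wfdc17) and in 36.8% of all 32851 promoters. The pattern GGGNNNNNCC, for NF-kB, was in 2 of the 5 (Chil3 and Lrg1) and in 45.8% of all promoters, and TTCNNNGAA, for STAT factors, was in 1 of the 5 (Chil3) and in 7.02%. A window of 30 bases around 1 match for each promoter, with a second one for Chil3, is shown on the gene's strand from 5′ to 3′ so that the letters behind these counts can be read, and the matched letters are in capitals. The RefSeq starts of Slpi and Lrg1 lie inside the longer gene spans given above, so their windows do too.
Saa3, C/EBP pattern, minus strand, chr7:46715757-46715786: ggtaagtgggaTTATGCAAgatcaaacagg
Chil3, C/EBP pattern on the opposite strand, minus strand, chr3:106167599-106167628: aaacacttcctTTTCCAAActtcccatttt
Chil3, STAT pattern, minus strand, chr3:106167717-106167746: aaatacccacTTCTTAGAAacatagctatc
Slpi, C/EBP pattern, minus strand, chr2:164356728-164356757: gaatttgtaTTGAGCAAtaggttagagttt
Wfdc17, C/EBP pattern, plus strand, chr11:83703923-83703952: agagaagtcacTTATGAAActggaaaaagg
Lrg1, NF-kB pattern, minus strand, chr17:56121961-56121990: acccggccctGGGCTCTTCCtgctttgcct
A match describes the letters of the window only, and binding was not measured in these libraries.

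The libraries kept 7340 to 9485 barcodes each, with 45347595 to 87604282 UMIs and a median of 3799 to 6294.5 UMIs per barcode. HLU replicate 2 stood apart: it held the most UMIs, and only 267 of its barcodes were under 1000 UMIs against 2143 to 2585 in the other 3 libraries. It also had 230 barcodes over 40000 UMIs, against 6 to 17 in the others. Each library was deposited with 10000 barcodes, or 10003 for HLU replicate 2, so the counts under 1000 UMIs depend on that number too. Skeletal lineage-like cells (mesenchymal stromal- and chondrocyte-like clusters together) made up 46.1% of kept barcodes in Ctrl replicate 1 and 30.5% in Ctrl replicate 2, but 2.04% and 2.20% under HLU. Osteoblast markers were on the lists for this lineage, but no cluster was named osteoblast-like. Cells were clustered without the 8 genes and named from marker lists, and the cut-offs for giving a name were chosen with the clusters already in view. Each pair of libraries shared 13 to 21 barcode sequences, and every pair differed by more than sampling noise. Levels of the 8 genes are given for each library apart where a result turns on them, so that the library that carries a difference can be seen.

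By the mean over the libraries, cells of the neutrophil and monocyte lineages held the highest level of each gene. Levels are given as counts per 1000000 UMIs (CPM) of a cell class in a library, and they compare libraries and classes for 1 gene but not genes with each other. Among the 8 classes with enough cells in every library, progenitor and stage I (immature, granule-forming) neutrophil-like cells had the highest mean level of Hp, Orm1, Chil3 and Lrg1. Stage II (mature) neutrophil-like cells had the highest mean level of Wfdc21, but through HLU replicate 2 alone, since in each of the other 3 libraries the immature cells held more of it. Monocyte-like cells had the highest mean level of Saa3, Slpi and Wfdc17. Their Saa3 mean of 4008 CPM rests largely on HLU replicate 2, at 13321 CPM. In HLU replicate 1 skeletal lineage-like cells held more Saa3 than monocyte-like cells, at 1188 against 901 CPM. They also held more Hp than the immature neutrophils there, at 1900 against 1732 CPM. For Hp, Wfdc21 and Lrg1 the 2 neutrophil classes lay close together, with mean levels of Hp of 1874 and 1739.6 CPM and overlapping ranges over the libraries. The classes were formed from the same cells, so the order of classes was not tested.

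**Figure D1:**
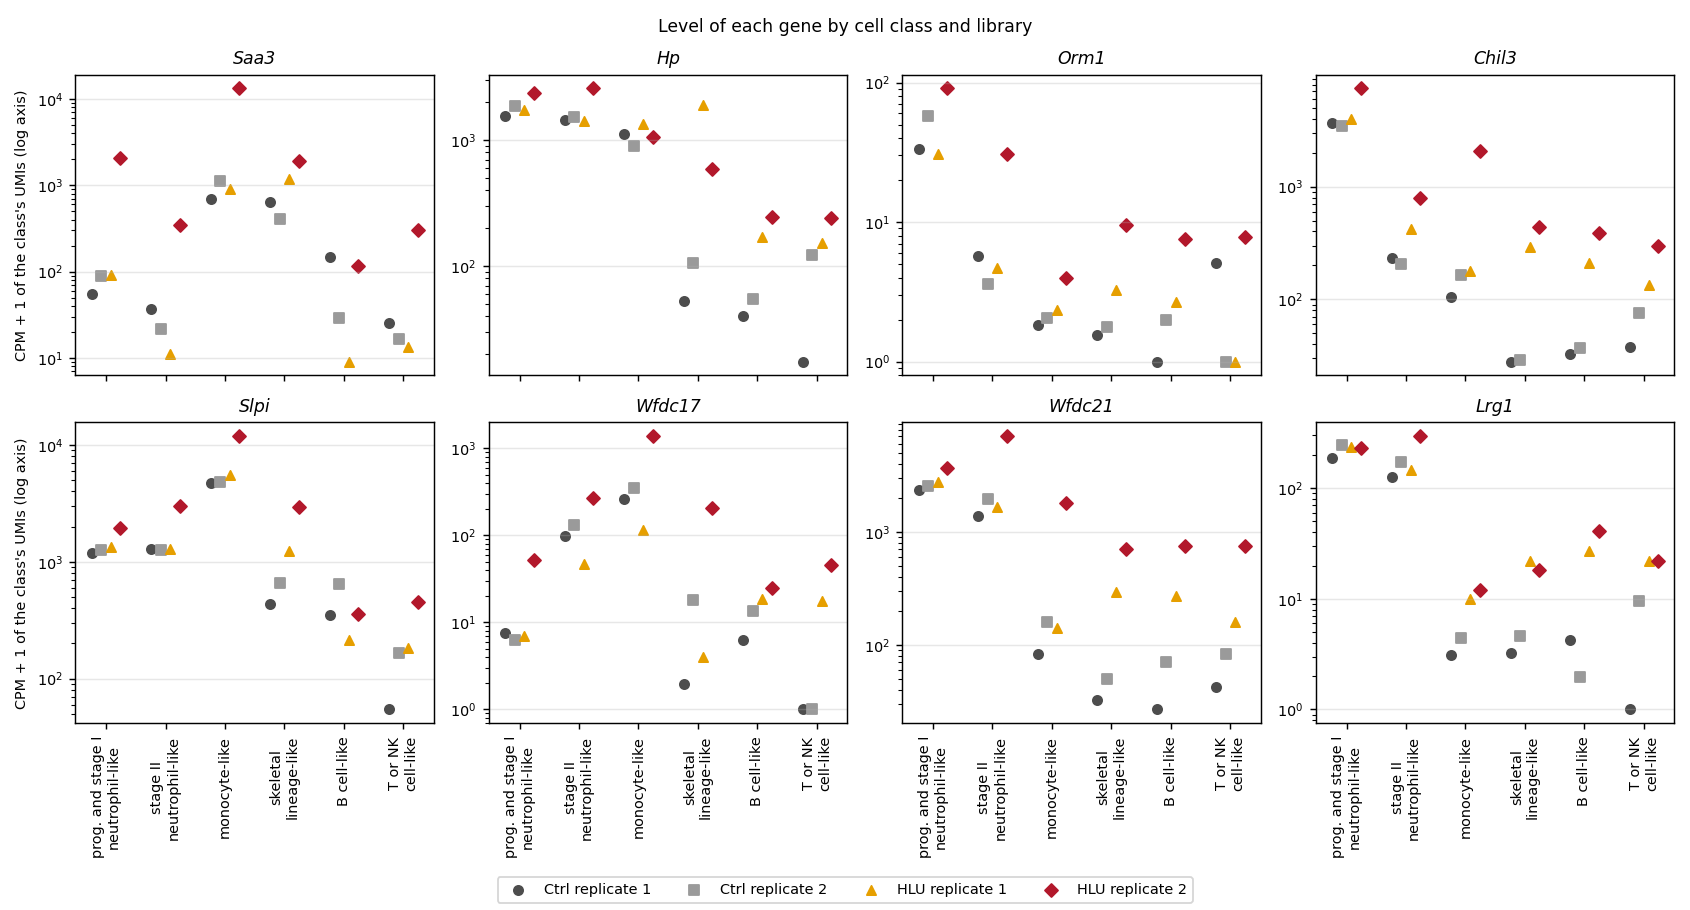
Level of each gene (CPM + 1 of the class's UMIs, log axis) in 6 cell classes, with 1 point per library. In monocyte-like cells Saa3, Chil3, Wfdc17 and Wfdc21 of HLU replicate 2 (red diamonds) lie far above the other 3 libraries, with Saa3 at 13321 CPM against 684 to 1126 CPM.

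The source of the UMIs was stable between libraries for the neutrophil genes and changed for Saa3. Progenitor and stage I neutrophil-like cells supplied 84.4% to 89.0% of the Chil3 UMIs of a library. They supplied 70.8% to 84.0% of Orm1, 63.0% to 71.8% of Lrg1 and 53.9% to 59.3% of Hp, so no library departed from the others by much for these 4 genes. For Wfdc21 the same class supplied 67.5%, 60.3%, 70.3% and 47.8% (Ctrl replicates 1 and 2, then HLU replicates 1 and 2), and stage II neutrophil-like cells supplied 36.6% in HLU replicate 2 against 17.5% to 24.7% in the other libraries. Monocyte-like cells supplied 25.1%, 28.1%, 37.3% and 56.0% of Slpi and 52.5%, 44.8%, 40.3% and 72.4% of Wfdc17, the highest share being that of HLU replicate 2 for both. Saa3 came mainly from skeletal lineage-like cells in Ctrl mice, at 81.3% and 65.8% of its UMIs, and this share was 19.0% and 1.40% in HLU mice. Monocyte-like cells supplied 6.44% and 25.0% of the Saa3 of Ctrl mice, against 55.9% and 68.5% in HLU mice. These shares follow how many cells of a class each library held as well as the level in each cell.

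**Figure D2:**
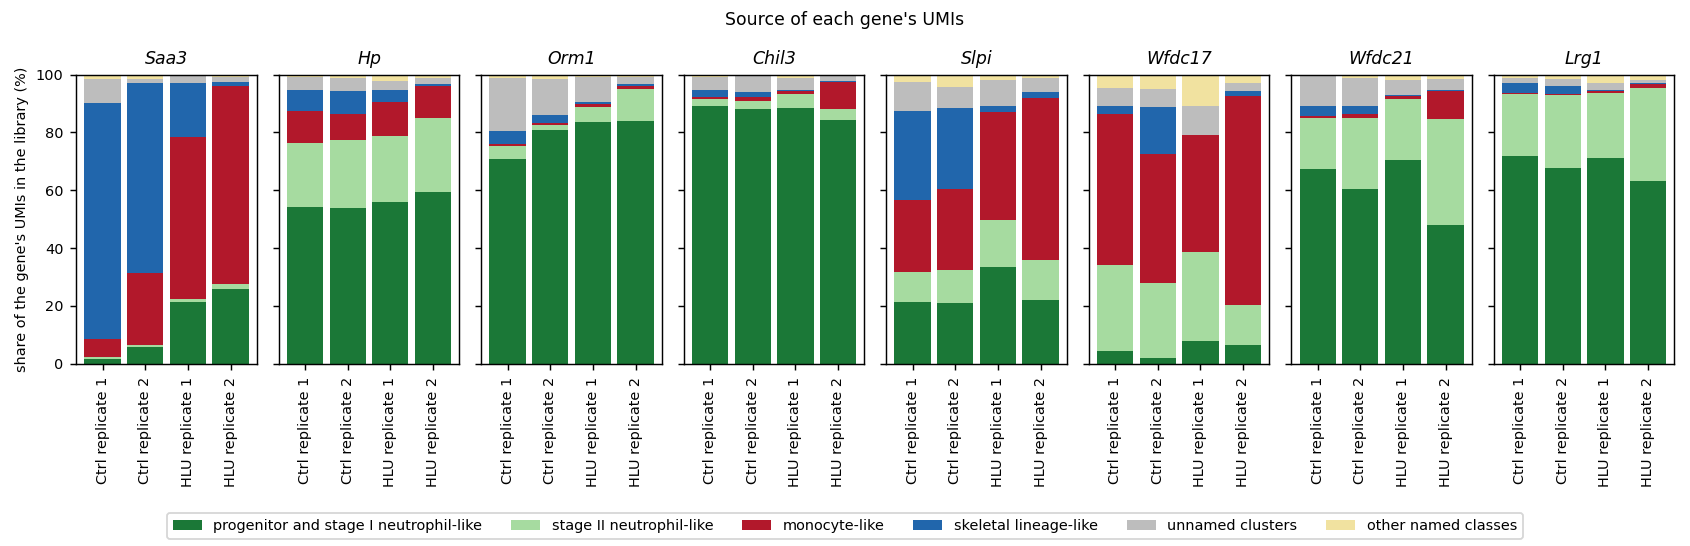
Share of each gene's UMIs (%) that came from each cell class, with 1 stacked bar per library. Saa3 shifts from skeletal lineage-like cells (blue, 81.3% and 65.8% in Ctrl) to monocyte-like cells (red, 55.9% and 68.5% in HLU), while Chil3 stays at 84.4% to 89.0% from progenitor and stage I neutrophil-like cells (dark green).

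Saa3 differed by the largest factor of the 8 between HLU replicate 2 and the highest other library in the 3 myeloid classes, by little in monocyte-like cells (11.8 against 11.5 for Wfdc21 and Chil3). In skeletal lineage-like cells that factor was 1.59 for Saa3 and 11.8 for Wfdc17. In monocyte-like cells its level was 684 and 1126 CPM in Ctrl replicates 1 and 2, 901 CPM in the first HLU mouse and 13321 CPM in the second, HLU replicate 2. HLU replicate 1 lay between the Ctrl libraries, and HLU replicate 2 was 11.8 times the highest of the other 3. In progenitor and stage I neutrophil-like cells Saa3 stood at 53.7, 88.3, 91.3 and 2044 CPM in the same order of libraries. Here too HLU replicate 1 was beside the Ctrl libraries, at 1.29 times their mean, while HLU replicate 2 was at 28.8 times that mean. The class pools clusters with unlike levels of Saa3, which are given below. Mature neutrophils (stage II) had Saa3 at 35.9, 20.9, 10.1 and 348 CPM, with HLU replicate 1 the lowest of the 4 libraries and HLU replicate 2 the highest. The 2 HLU libraries therefore lay on opposite sides of the Ctrl libraries in that class. In T or NK cell-like cells, which should lack the gene, the level was 24.7, 15.5, 12.5 and 299 CPM, so the stage II value of HLU replicate 2 lay near that of these cells. B cell-like cells had 147, 28.3, 8.07 and 116 CPM.

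Skeletal lineage-like cells gave another picture for Saa3, with 642, 408, 1188 and 1889.8 CPM, both HLU libraries above both Ctrl libraries. The HLU values rest on 158 and 209 cells against 3382 and 2330 in Ctrl. In each library the 10% of cells with the most Saa3 held 95.2% to 99.7% of its Saa3 UMIs, counted without thinning for depth. High levels were found in a mesenchymal stromal-like cluster led by Il1rl1, Ptx3, Mmp2, Cxcl12 and Col1a1, in which Saa3 was at 3871, 2472, 2275 and 3386 CPM (337, 294, 42 and 53 cells). The 2 groups overlapped in that cluster, and HLU replicate 2 was within the range of the Ctrl libraries. The HLU replicate 1 value of the whole class was also raised by a cluster led by Myoc and Apod, where 21 cells gave 3489 CPM against 25.8 and 20.7 CPM in Ctrl and 144 CPM in HLU replicate 2.

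Saa3 was also compared cluster by cluster. In 17 of the 20 clusters with at least 20 cells in every library HLU replicate 2 had the highest Saa3 level, in 16 it was at least 2-fold above the highest other library, and the median over the 20 clusters was 11.5-fold. These counts include clusters of cells that should lack the gene, and in 9 of the 16 the level of HLU replicate 2 was above the 299 CPM of its T or NK cell-like cluster. Neutrophil progenitor-like cells of the cluster led by Elane, Ctsg and Prtn3 had 135, 182, 213 and 2574 CPM. Ly6c2, which is on the monocyte marker list, was among the leading genes of both progenitor-like clusters. Ms4a6c, also on that list, was among those of the other cluster. Whether they hold monocyte progenitors was not tested. In HLU replicate 2 the other progenitor-like cluster was at 4562 CPM and a stage I neutrophil-like cluster led by Hist1h1b at 1199 CPM. The remaining stage I neutrophil-like clusters were at 103 and 222 CPM there, below the T or NK cell-like level. Among the stage II neutrophil-like clusters, the one led by Stfa2l1 and other stefin A genes reached 1021 CPM in HLU replicate 2, against 117 and 78.8 CPM in the other 2. In the 3 other libraries these 3 clusters did not exceed 53.2 CPM. When the monocyte-like cells were split more finely, cells led by Serpinb2, Vcan and Cxcl3 had 813, 1137, 661 and 14740.3 CPM and cells led by Ms4a6c, Marco and Ass1 had 477, 1436, 1546 and 11144 CPM. The high value of HLU replicate 2 was thus found in both kinds of monocyte-like cell.

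**Figure D3:**
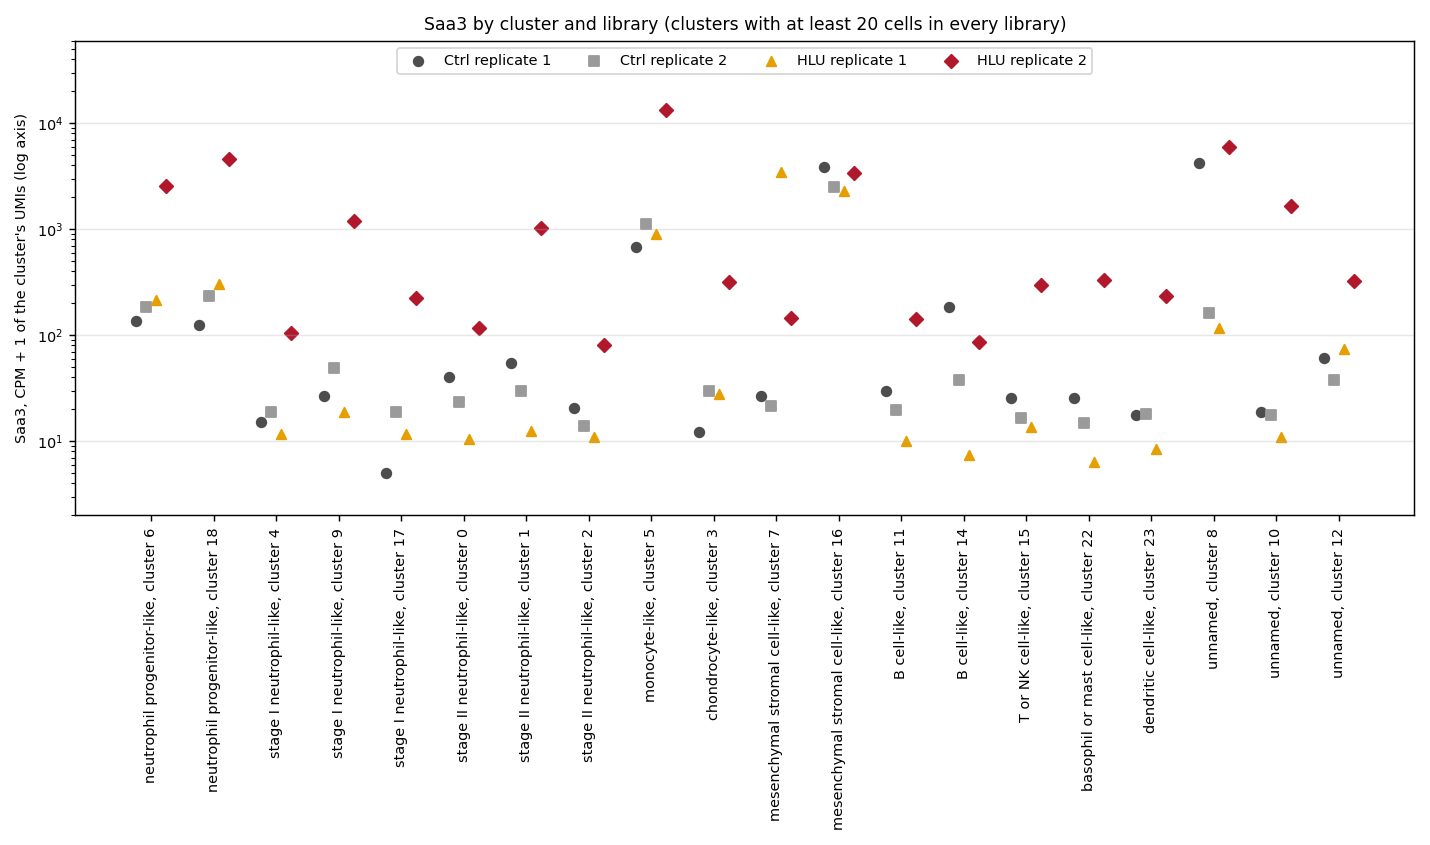
Saa3 level (CPM + 1 of the cluster's UMIs, log axis) in each cluster with at least 20 cells in every library, with 1 point per library. HLU replicate 2 (red diamonds) is highest in 17 of 20 clusters. In mesenchymal stromal-like cluster 16 the 4 libraries lie together at 2275 to 3871 CPM.

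Haptoglobin differed by less than 2-fold between any of the libraries in each of the 3 myeloid classes. In progenitor and stage I neutrophil-like cells Hp was at 1559 and 1849 CPM in Ctrl and 1732 and 2358 CPM in HLU. Stage II neutrophil-like cells had 1445, 1522, 1415 and 2576 CPM of Hp, with HLU replicate 1 just below both Ctrl libraries and HLU replicate 2 above them. Monocyte-like cells had 1114, 895, 1343 and 1059.8 CPM, so that HLU replicate 2 lay within the Ctrl range there. The 3 classes thus gave no common order of the libraries for Hp beyond the high value of HLU replicate 2 in neutrophil-like cells.

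Orm1 was measured at low depth, with 377, 767, 685 and 4459 UMIs in the 4 libraries. In progenitor and stage I neutrophil-like cells it was at 32.6, 56.3, 29.7 and 90.04 CPM, where HLU replicate 1 was the lowest library and HLU replicate 2 the highest. The stage II level of Orm1 was 4.69, 2.57, 3.69 and 29.5 CPM, with HLU replicate 1 between the Ctrl libraries. Its near-identical copies Orm2 and Orm3 had at most 6 UMIs in a library, and how reads shared by the copies were assigned was not given, so the Orm1 counts are uncertain to that extent.

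Lrg1 was nearly level in the immature neutrophils. It was at 185 and 245 CPM in Ctrl and 235 and 228 CPM in HLU in progenitor and stage I neutrophil-like cells, with both HLU libraries inside the Ctrl range. The stage II level was 125, 172, 145 and 295 CPM. HLU replicate 2 was thus 1.71 times the highest other library in the mature class only. In monocyte-like cells Lrg1 was at 2.10 and 3.42 CPM in Ctrl and 8.91 and 10.9 CPM in HLU. Both HLU libraries were thus above both Ctrl libraries there, at 3.23 and 3.96 times the Ctrl mean, on low levels. T or NK cell-like cells, which should lack the gene, had 0, 8.62, 20.8 and 21.1 CPM of Lrg1. The HLU values of the monocyte-like cells lay below these and are read as background.

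Chil3 was highest in immature neutrophils in every library. Progenitor and stage I neutrophil-like cells had 3672 and 3446 CPM in Ctrl and 3987 and 7436 CPM in HLU, so both HLU libraries were above both Ctrl libraries, HLU replicate 1 by little. On CPM scaled between libraries as in the fit given below, HLU replicate 1 lay within the Ctrl range, at 3892 against 3893 and 3588 CPM. Stage II neutrophil-like cells had 232, 206, 421 and 789.9 CPM, with both HLU libraries above Ctrl and at 1.92 and 3.60 times the Ctrl mean. B cell-like cells, which should lack the gene, also had more of it in both HLU libraries, at 31.9, 35.8, 210 and 385 CPM. The part of such background in the stage II values was not tested. In monocyte-like cells Chil3 was at 105, 164, 179 and 2060.2 CPM. The level of HLU replicate 2 there was 11.5 times that of HLU replicate 1, which lay near the higher Ctrl library. The near-identical Chil4 had at most 2 UMIs in a library.

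Slpi, the elastase inhibitor, was at 4763, 4818, 5541 and 11907 CPM in monocyte-like cells. HLU replicate 1 was 1.16 times the Ctrl mean and HLU replicate 2 was 2.49 times that mean. In stage II neutrophil-like cells the 2 Ctrl libraries and HLU replicate 1 nearly coincided, at 1275, 1257 and 1282 CPM, while HLU replicate 2 had 3018 CPM. In progenitor and stage I neutrophil-like cells the levels were 1186, 1250.4, 1331 and 1926 CPM. HLU replicate 2 was the highest library for Slpi in all 3 classes.

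The WAP-domain genes Wfdc17 and Wfdc21 showed the same library standing apart in different cells. Wfdc17 was at 263, 349.9, 114 and 1385 CPM in monocyte-like cells, the HLU libraries lying on opposite sides of Ctrl at 0.370 and 4.52 times its mean. Stage II neutrophil-like cells had Wfdc17 at 97.4, 132, 45.9 and 269 CPM, with the same order. Wfdc21 was at 1389, 1950.5, 1649 and 7040.3 CPM in stage II neutrophil-like cells, where HLU replicate 1 lay between the Ctrl libraries and HLU replicate 2 was 3.61 times the highest of the others. In monocyte-like cells Wfdc21 was at 81.3, 157, 140.1 and 1816 CPM, and in progenitor and stage I neutrophil-like cells it was at 2368, 2519.7, 2753 and 3668 CPM. Of the 20 clusters with at least 20 cells in every library, HLU replicate 2 had the highest Wfdc21 level in all 20 and was at least 2-fold above the others in 12. Cells that should lack the gene were among the 12, such as T or NK cell-like cells at 41.1, 82.7, 158 and 746 CPM, and 8 of the 12 lay above that last value in HLU replicate 2.

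The share of cells with a UMI was compared after every cell had been thinned to 1000 UMIs, so that depth did not set it. In monocyte-like cells a Saa3 UMI was found in 14.7%, 14.7%, 22.7% and 82.9% of cells (95% exact binomial interval for HLU replicate 2, 80.6% to 85.002%), and in 30.7%, 26.7%, 38.1% and 93.6% before thinning. The share in T or NK cell-like cells, taken as the background of free RNA, was 3.28%, 0.676%, 3.85% and 14.1%, with a median of 2784 to 4274 UMIs per cell against 9011.5 to 12431 in monocyte-like cells. Saa3 was therefore above background in the monocyte-like cells of every library and was found in most of them in HLU replicate 2 alone. The intervals cover counting error only.

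The same step was seen for 3 more genes in monocyte-like cells. Chil3 was found in 5.96%, 7.33%, 13.4% and 61.6% of them, Wfdc21 in 5.96%, 7.33%, 11.002% and 54.5%, and Wfdc17 in 17.4%, 20.2%, 11.2% and 58.2%. For Chil3 and Wfdc21 the HLU replicate 1 shares were at or below those of its T or NK cell-like cells (14.4% and 12.5%), and they are read as background. Slpi was found in 66.5%, 61.6%, 73.8% and 94.8%, and Hp in 40.4%, 36.4%, 55.7% and 46.7%. At least 5 of the 8 genes were found together in 1.38%, 2.05%, 0.978% and 39.6% of monocyte-like cells.

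In mature neutrophils the share of cells told apart a part of the genes only. Wfdc21 was found in 50.1%, 61.1%, 55.4% and 97.9% of stage II neutrophil-like cells, Hp in 55.7%, 56.1%, 60.8% and 86.6%, and Slpi in 49.6%, 50.9%, 56.3% and 83.5%. Saa3 was found in 4.37%, 2.14%, 1.35% and 10.99% of them, below the T or NK cell-like share in HLU replicate 2 (14.1%). By level the whole class stood at 348 CPM in HLU replicate 2, against 299 CPM in T or NK cell-like and 116 CPM in B cell-like cells. The part of background in the class was not tested. The cluster led by Stfa2l1 stood higher by level, at 1021 CPM in HLU replicate 2. In progenitor and stage I neutrophil-like cells Saa3 was found in 3.64%, 4.27%, 4.35% and 35.6%. This is above the T or NK cell-like share in HLU replicate 2 for the class as a whole, though not by level in each of its clusters. At least 5 of the genes were found together in 5.94%, 7.96%, 8.48% and 25.9% of these immature cells and in 0.430%, 1.52%, 1.44% and 12.3% of the mature ones.

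**Figure D4:**
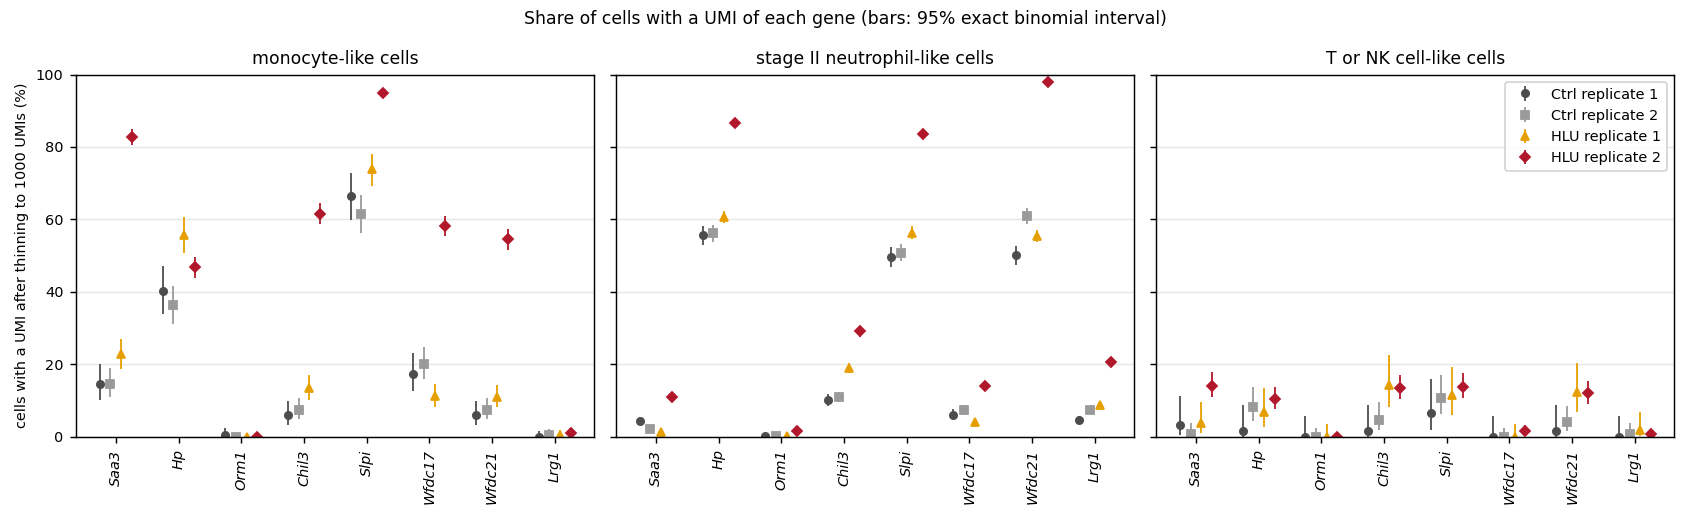
Share of cells (%) with at least 1 UMI of each gene after thinning each cell to 1000 UMIs, in monocyte-like, stage II neutrophil-like and T or NK cell-like cells, with 1 point per library and 95% exact binomial intervals. In monocyte-like cells Saa3 of HLU replicate 2 is at 82.9% against 14.7% to 22.7% in the other libraries, and in T or NK cell-like cells its highest share is 14.1%.

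HLU was compared with Ctrl by a fit across all genes of the UMIs summed per library (edgeR quasi-likelihood test, Benjamini-Hochberg adjusted), with libraries as the replicates. In sums over all kept barcodes 4 of the 8 genes passed an adjusted p of 0.05 with a higher level in HLU, beside 6.06% of all 15385 genes tested, and 0 passed with a lower one, beside 17.1%. The 4 were Chil3, Wfdc21, Hp and Lrg1. Their log2 fold changes were 2.29 ± 0.50 (SE), 2.14 ± 0.53, 1.68 ± 0.40 and 1.65 ± 0.39, with 2 libraries per group. Saa3 did not pass, at 2.55 ± 1.32 with 450, 292, 183 and 3777 CPM over all kept barcodes. Fewer cells of a type and less RNA per cell cannot be told apart in these sums, and the share of neutrophil-like cells moved with them: progenitor and stage I neutrophil-like cells were 11.2%, 13.5%, 24.3% and 26.7% of the barcodes. For 6 of the 8 genes both HLU libraries were above both Ctrl libraries, beside 31.7% of all genes.

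Within the myeloid classes 0 of the 8 genes passed in either direction. Higher calls made up 0% and lower calls 1.18%, 2.9% and 0.0589% of all genes in progenitor and stage I neutrophil-like, stage II neutrophil-like and monocyte-like cells, where 762, 992 and 578 genes had an unadjusted p under 0.05. Of the 8 genes, 1, 1 and 3 were among these, Saa3 in the immature neutrophils, Chil3 in the mature ones and Chil3, Wfdc21 and Lrg1 in the monocyte-like cells. DESeq2 called 0, 1 and 1 of them, Chil3 in stage II neutrophil-like cells and Saa3 in monocyte-like cells, beside 0.122%, 0.181% and 0.0786% of all genes called as higher. With no filter on low counts edgeR called 2 in the immature neutrophils (Saa3 and Wfdc17), 4 in the mature ones (Saa3, Orm1, Chil3 and Wfdc21) and 5 in monocyte-like cells (Saa3, Chil3, Wfdc17, Wfdc21 and Lrg1), beside 1.36%, 1.76% and 1.16%. The median log2 fold change of the members was 0.28, 1.37 and 1.79 in the 3 classes, beside 0.05, 0.03 and 0.02 over all genes tested. Orm1 passed the filter on low counts in the neutrophil classes but not in monocyte-like cells, so 7 genes stand behind the last value. Saa3 had wide errors in all 3, at 3.74 ± 1.31, 3.07 ± 1.502 and 2.99 ± 1.21. Lrg1 in monocyte-like cells had a narrower one, at 1.79 ± 0.44, on levels below those of T or NK cell-like cells in both HLU libraries.

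The 2 HLU libraries differed widely from each other. The counts that follow are on CPM scaled between libraries by TMM, as in the fit, while the levels above are unscaled. On this scale HLU replicate 2 was at least 2-fold above each of the other 3 libraries for 2 of 8 genes in progenitor and stage I neutrophil-like cells, beside 7.26% of all genes, for 8 of 8 in stage II neutrophil-like cells, beside 7.8%, and for 5 of 7 in monocyte-like cells, beside 5.29%. HLU replicate 1 was at least 2-fold above the other libraries for 0 of them in these classes, beside 0.21%, 0.107% and 0.206% of all genes. It lay between the Ctrl libraries or within 1.5-fold of them for 8 of 8, 5 of 8 and 5 of 7 genes, beside 88.3%, 84.4% and 89.6% of all genes. Both HLU libraries were above both Ctrl libraries for 1, 1 and 3 genes, beside 19.7%, 20.6% and 17.6%. On unscaled levels the 2-fold step of HLU replicate 2 was met by 2 of 8, 5 of 8 and 6 of 8 genes in the same classes, Orm1 of the monocyte-like cells included. The stage II count thus depends on the scaling, with Hp, Chil3 and Lrg1 at 1.69 to 1.88 times the highest other library before it. The share of all genes that met the step was not counted on unscaled levels. In the sums over all kept barcodes HLU replicate 2 was at least 2-fold above each other library for 6 of 8 genes, beside 4.66%, and HLU replicate 1 for 0, beside 2.61%. HLU replicate 1 was near the Ctrl libraries in those sums, by the same measure, for 2 of 8 genes, beside 50% of all genes. Hspa1a, a heat-shock gene on the list of dissociation-induced genes, moved with HLU replicate 2 as well. It was at 503, 91.9, 104 and 0.121 CPM in stage II neutrophil-like cells and at 332, 173, 72.9 and 2.11 CPM in monocyte-like cells, HLU replicate 2 being the lowest in both. Hspa1b was alike, at 283, 61.9, 104 and 0.181 CPM in the mature neutrophils. Whether what moved these heat-shock genes had a part in the values of the 8 genes was not tested.

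Leaving out either HLU library changed the calls. Without HLU replicate 2 the lone HLU library is assumed to vary like the Ctrl libraries. Over all barcodes 4 of 8 genes (Hp, Chil3, Wfdc21 and Lrg1) then kept their higher calls, at 1.32 to 1.52, beside 15.1% of all genes, and Saa3 alone passed as lower (-1.02 ± 0.32), beside 22.7%. In stage II neutrophil-like cells Chil3 passed as higher (0.86 ± 0.23), beside 0.809% of all genes, and Saa3 (-1.54 ± 0.31) and Wfdc17 (-1.41 ± 0.26) as lower, beside 7.49%. Orm1 passed as lower in progenitor and stage I neutrophil-like cells (-0.70 ± 0.24), beside 5.46%, and Wfdc17 in monocyte-like cells (-1.49 ± 0.24), beside 2.66%. No gene of the 8 passed as higher in these last classes, beside 1.22% and 0.818% of all genes.

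Without HLU replicate 1, under the same assumption, more genes of the whole table passed as higher than with all 4 libraries. Of the members, 8 of 8 passed in the sums over all barcodes, beside 22.1% of all genes, and 8 of 8 in stage II neutrophil-like cells, beside 21%. In progenitor and stage I neutrophil-like cells 4 of 8 passed (Saa3, Orm1, Chil3 and Wfdc17), beside 20%, and in monocyte-like cells 6 of 7 (all but Hp), beside 17.2%. In the sums over all barcodes the higher calls of the members were not kept when either Ctrl library was left out. Hardly any gene of the whole table was called as higher in those fits, so the loss says little about the members. Their median log2 fold change was 1.68 without Ctrl replicate 1 and 2.34 without Ctrl replicate 2.

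**Figure D5:**
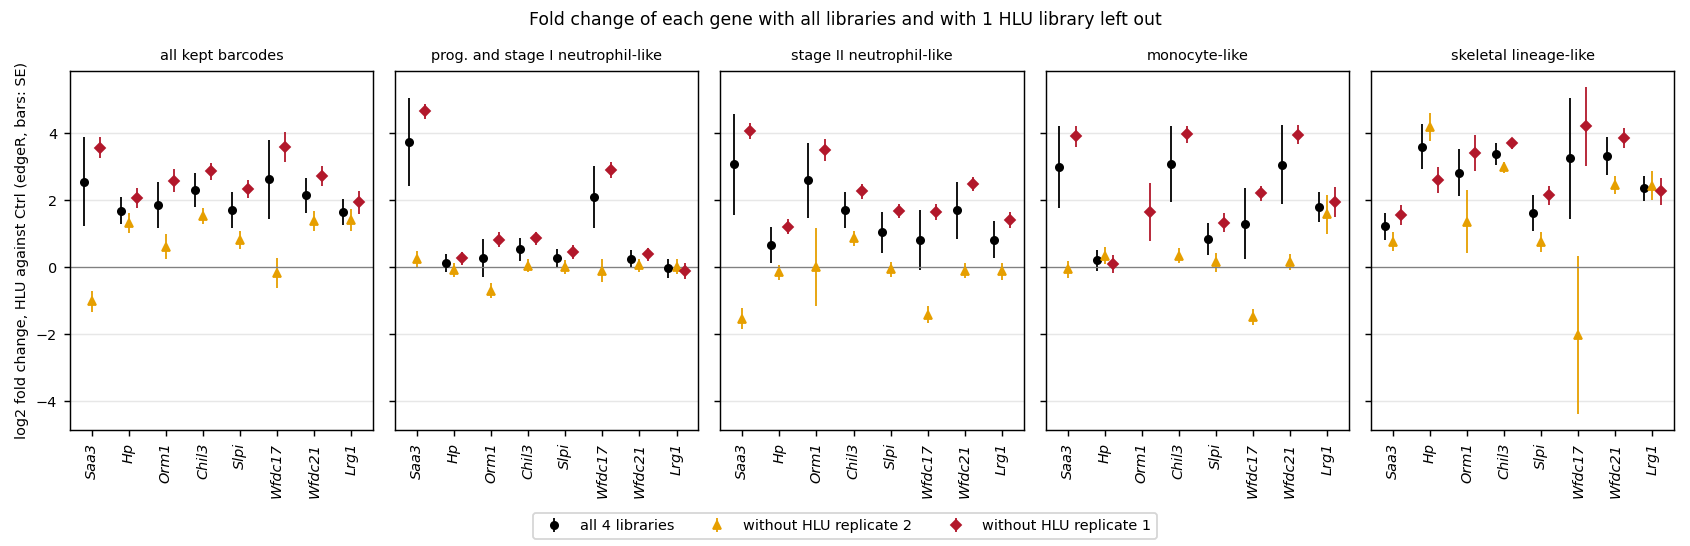
Log2 fold change of each gene, HLU against Ctrl (edgeR, bars show the SE), in sums over all kept barcodes and in 4 cell classes, with all 4 libraries and with either HLU library left out. In stage II neutrophil-like cells Saa3 goes from 3.07 with all libraries to -1.54 without HLU replicate 2 and 4.06 without HLU replicate 1.

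In skeletal lineage-like cells 1 of 8 genes, Chil3, passed as higher in HLU (3.38 ± 0.33), beside 0.571% of 13491 genes tested, with 27.1, 28.4, 293 and 437 CPM, and 0 passed as lower, beside 0.4%. B cell-like cells, which should lack Chil3, had it at 31.9, 35.8, 210 and 385 CPM. Wfdc21 was near in both classes too, at 293 and 710 CPM in HLU against 269 and 746 CPM in B cell-like cells. Hp was not, at 1900 and 583 CPM against 169 and 243 CPM. The HLU replicate 1 value of Hp was raised by a chondrocyte-like cluster led by Col10a1 and Cytl1. There 27 cells gave 3519 CPM, 118 times the Ctrl mean, against 282 CPM in HLU replicate 2. For 7 of 8 genes both HLU libraries were above both Ctrl libraries, beside 26.1% of all genes, and the median log2 fold change of the 8 was 3.04 against -0.01 over all genes. HLU replicate 2 was at least 2-fold above each other library for 4 genes and HLU replicate 1 for 1 gene (Hp), beside 3.97% and 3.83%. HLU replicate 1 was between the Ctrl libraries or within 1.5-fold of them for 3 of 8, beside 64.7% of all genes. DESeq2 called 6 of the 8, beside 4% of all genes, and edgeR with no filter on low counts called 8 of 8, beside 4.46%. When cells were clustered without integration of the libraries 0 of 8 passed, beside 0% of all genes, while 5 of the 8 had an unadjusted p under 0.05. Without HLU replicate 2 higher calls were made for 4 genes (Hp, Chil3, Wfdc21 and Lrg1), beside 3.09%, and lower calls for 0, beside 3.8%. Without HLU replicate 1 they were made for 7 (all but Wfdc17), beside 7.84%. Neither Ctrl library could be left out with the call kept, but those fits called no gene of the whole table, so the loss is not particular to the members. The median log2 fold change of the 8 was 2.42 without Ctrl replicate 1 and 3.22 without Ctrl replicate 2.

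Neutrophil transcripts moved with the group in cells that should lack them. S100a8 and S100a9 together, the most abundant cytosolic proteins of neutrophils, were at 2993, 3896, 23904 and 17774 CPM in skeletal lineage-like cells, 3375, 5398, 22346 and 34835 CPM in B cell-like cells and 2411, 13666, 23789 and 28629 CPM in T or NK cell-like cells. Per 1000 UMIs of S100a8 and S100a9, Chil3 had 9.06, 7.28, 12.2 and 24.6 UMIs in skeletal lineage-like cells against 18.6, 16.7, 19.9 and 41.1 in progenitor and stage I neutrophil-like cells. Hp had 17.3, 27.0, 79.5 and 32.8 per 1000 in skeletal lineage-like cells and 6.98 to 11.7 in B cell-like cells. Hp in the skeletal lineage-like cells of HLU replicate 1 was at 1900.5 CPM, above the 1732 CPM of the immature neutrophils of the same library. The part of free neutrophil RNA in the skeletal values was not tested.

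The other acute-phase genes of a list of 20 were read in the same fits. In the sums over all kept barcodes 15 of them were tested, 2 rose in HLU, beside 6.06% of all genes, and 6 fell, beside 17.1%. Serpina3g, a protease inhibitor (2.08 ± 0.52, adjusted p = 0.0445, edgeR quasi-likelihood test), and complement C3 (1.45 ± 0.37, adjusted p = 0.0466, edgeR) rose. Saa1, the plasma serum amyloid A, fell by 5.67 ± 0.76 on the log2 scale (adjusted p = 0.00897, edgeR), with 6204 and 8443 UMIs in Ctrl and 45 and 313 in HLU. Cp, Lbp, Ptx3, Mt1 and Mt2 also fell, by 2.68 to 4.35. The median of the list was -2.68 against 0.04 over all genes. Ceruloplasmin (Cp), Saa1, Ptx3 and Mt2 fell in stage II neutrophil-like cells as well, where each was at 0.766 CPM or less in HLU apart from Mt2, at 3.85 and 3.60 CPM. Unscaled Ctrl levels there were 6.07 and 6.35 CPM for Cp and 6.90 and 4.12 CPM for Saa1. B cell-like cells moved the same way, with Cp at 77.5, 21.2, 0.278 and 0.544 CPM and Saa1 at 51.7, 14.0, 0.278 and 0 CPM. The part of free RNA in the stage II falls was not tested. Saa1 and Saa2 are close copies of Saa3, and in HLU replicate 2 they had 313 and 117 UMIs against 330871 for Saa3. The falls went with the smaller share of skeletal lineage-like cells given above, whose part in it cannot be told apart in these sums.

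Lcn2, the iron-withholding neutrophil lipocalin of the same list, did not pass in any comparison. It was at 5223, 6849, 4511 and 25668 CPM (scaled by library, TMM) in stage II neutrophil-like cells and at 959.6, 1152, 1025 and 4483 CPM in monocyte-like cells. HLU replicate 2 was the highest library in both.

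Of 15 antimicrobial relatives 12 were tested over all barcodes. The 5 that rose were S100a8, S100a9, Lyz2, Pglyrp1 and Slc11a1, beside 6.06% of all genes, and the 2 that fell were Wfdc1 and Wfdc2, a share near the 17.1% of all genes. The granule genes among the risers, such as Pglyrp1, a peptidoglycan-binding protein (1.80 ± 0.37, adjusted p = 0.0271, edgeR), moved with the share of neutrophil-like cells. Within the 3 myeloid classes 0 relatives of this list passed the edgeR test, while 0, 0 and 6 of them had an unadjusted p under 0.05 in immature neutrophils, mature neutrophils and monocyte-like cells. In skeletal lineage-like cells Lyz2 (3.04 ± 0.37) and Pglyrp1 (2.25 ± 0.26) rose, both with an adjusted p of 0.0447 (edgeR), beside 0.571% of all genes. B cell-like cells, which should lack both, had Lyz2 at 165, 247, 875 and 789 CPM and Pglyrp1 at 8.48, 25.1, 129 and 171 CPM (unscaled). The part of free RNA in the skeletal values of these genes was not tested.

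Of the inducers, 15 of 15 were tested over all barcodes and 1 rose, a share near the 6.06% of all genes. It was Cebpe (1.56 ± 0.31, adjusted p = 0.0251, edgeR), the C/EBP factor of granule formation. Il1b, the interleukin-1 beta gene, was at 1836, 1281, 1072 and 4754 CPM (TMM-scaled) in monocyte-like cells, with HLU replicate 2 the highest. Cebpb, a C/EBP factor of acute-phase genes, went the other way there, at 2798, 2559, 2848 and 336 CPM, and in stage II neutrophil-like cells it was at 3242, 3942, 2333 and 359.6 CPM. HLU replicate 2 was thus the library with the most Saa3 and the least Cebpb. Neither Il1b nor Cebpb passed the test in these classes. The low Cebpb of HLU replicate 2 was not confined to them. On unscaled levels B cell-like cells had 921, 871, 325 and 24.5 CPM of Cebpb and skeletal lineage-like cells had 978, 1026, 1507 and 195 CPM. Il6 was at 31.1, 42.4, 176 and 456 CPM (TMM-scaled) in skeletal lineage-like cells and did not pass either.

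Of 16 receptors and binding partners 15 were tested over all barcodes, 3 rose and 4 fell, beside 6.06% and 17.1% of all genes. The formyl peptide receptors Fpr2 (2.45 ± 0.52, adjusted p = 0.0286, edgeR), which binds serum amyloid A among other ligands, and Fpr1 (2.15 ± 0.54, adjusted p = 0.0440, edgeR) rose, as did Plscr1. The interleukin-6 family receptor chains Osmr and Il6st, the interleukin-1 receptor Il1r1 and the scavenger receptor Lrp1 fell, by 2.40 to 4.17 on the log2 scale. The share of skeletal lineage-like cells fell in the same sums, and its part in these falls was not tested. Within skeletal lineage-like cells Osmr was at 92.8, 110, 112 and 88.0 CPM (unscaled) and Il6st at 145, 126, 144 and 228 CPM. Il1r1 was at 27.2, 20.2, 37.7 and 40.5 CPM there, while Lrp1 was lower in both HLU libraries, at 427, 431, 254 and 209 CPM. Osmr fell in both neutrophil classes and Il6st in the mature one, where both were under 10 CPM in every library. B cell-like cells had Osmr at 52.1, 30.3, 0.278 and 0 CPM and Il6st at 126, 114, 20.9 and 18.5 CPM (unscaled). The part of free RNA in the neutrophil falls was not tested. Of 12 genes known to be induced by tissue dissociation, 0 rose and 3 fell (Fosb, Atf3 and Nr4a1), beside 17.1% of all genes, and the median of that list was -1.26.

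The genes closest in pattern were found by Pearson's r of log2(CPM + 1) over 42 profiles, each a cell class in a library. These profiles share libraries and depth, so r is given as a description. Lrg1 was closest to S100a9 (r = 0.95), S100a8 (0.94) and Mrgpra2b (0.92), and Wfdc21 to Cd177 (0.92), Mrgpra2b (0.91) and S100a8 (0.90). Hp was closest to Mcemp1, Itgam and C3 (each 0.91), and Chil3 to Wfdc21 (0.83), Trem3 (0.82) and Cd177 (0.82). Orm1 was closest to the granule genes Camp (0.75), Ngp (0.73) and Ltf (0.73). Wfdc17 was closest to Nlrp3 (0.90), Il1b (0.89) and Slc15a3 (0.87), Slpi to Kmt5a (0.84), Prdx5 (0.77) and Thbs1 (0.77), and Saa3 to Cmklr1, Cd302 and Vcan (each 0.75). Within the 8, the closest pair was Wfdc21 and Lrg1 (0.86) and the least alike was Saa3 and Lrg1 (-0.14). The neutrophil genes Wfdc21, Lrg1, Chil3 and Hp were more like each other (0.70 to 0.86) than Saa3 was like any of the other 7 (at most 0.60).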

How the data were processed

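The authors deposited, per library, raw UMI counts of each gene and barcode made with Cell Ranger 6.0.0 on mm10, and the labels also name Seurat 4.1.0. Whole-number counts with no normalization were used as deposited. Barcodes with 1000 to 40000 UMIs and at most 10% mitochondrial UMIs were kept, which left 7340, 7635, 7757 and 9485 (Ctrl replicates 1 and 2, HLU replicates 1 and 2). Barcodes were grouped into libraries and groups from the labels. The members and the gene lists were chosen with earlier results of these data known.

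Libraries were integrated (Seurat 5.3.0, R 4.3.3, 2000 variable genes without the 8 members, 30 integration dimensions, 50 principal components, resolution 1). A cluster was named from marker lists when at least 3 of its type's markers were raised and markers of the type were among its 10 leading genes, and the rest stayed unnamed. Doublets were kept, and Scrublet (scanpy 1.11.5, Python 3.11.15) calls were left out as an alternative. UMIs were summed per library and class and tested with edgeR 4.0.16 (quasi-likelihood, TMM, filterByExpr), with Benjamini-Hochberg adjustment over all genes. The same fit was also run on counts simulated from the means and dispersions of these data. DESeq2 1.42.0, other scaling factors, filters, clusterings, a replicate block and each library left out were the alternatives. Where nothing in the labels says otherwise each library is 1 mouse, and p-values measure the spread between 2 libraries per group. The study compared cells as replicates, which was not done here.

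Named genes were the 8 members, their 3 closest genes by Pearson's r over profiles of at least 50000 UMIs, close copies, and from each list of relatives those past an adjusted p of 0.05 and, where described, the most abundant. The lists were secreted acute-phase relatives, antimicrobial relatives, inducers and transcription factors, receptors and binding partners, and dissociation-induced genes. Intervals are Clopper-Pearson. Whether the counting used strand, and how reads shared by near-identical genes were assigned, was not given in the sources used here.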

Additional observations from a re-analysis of the deposited data

Results flagged for a closer look

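The barcodes under 1000 UMIs, which no comparison above uses, had 5 of the 8 genes at a higher level in both HLU libraries than in either Ctrl library. The share of all genes that did so was not counted in these barcodes, so the 5 cannot be set against it. Chil3 had a mean of 1912 CPM in HLU against 733 in Ctrl, Slpi 2882 against 1144.0, Wfdc21 1693 against 841, Lrg1 105 against 61.4 and Orm1 17.4 against 10.1. HLU replicate 2 had only 267 such barcodes with 195532 UMIs in all, and its Orm1 value rests on 4 UMIs. Its Lrg1 value of 76.7 CPM, on 15 UMIs, lay close to the 74.0 CPM of Ctrl replicate 2. In the same barcodes Saa3 was at 622, 239, 174 and 3764 CPM in Ctrl replicates 1 and 2 and HLU replicates 1 and 2, so that HLU replicate 2 stood apart there as well.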

How the results depend on the processing

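The counts are genes past an adjusted p of 0.05, in the order all barcodes, progenitor and stage I neutrophil-like, stage II neutrophil-like, monocyte-like and skeletal lineage-like cells (3568, 135, 272, 6 and 131 in the fits reported). Over fits that leave out 1 library they ranged from 848 to 7726, 58 to 4789, 87 to 4176, 0 to 3650 and 0 to 2469. With at least 10 counts in every library they were 2375, 9, 14, 0 and 403, and with no filter 803, 1043, 590 and 2115 in the 4 classes. DESeq2 gave 338 in the immature neutrophils, 159 in monocyte-like and 1029 in skeletal lineage-like cells. Resolution 0.5 gave 209 and 14 in the immature neutrophils and monocyte-like cells, resolution 2 gave 16 in monocyte-like cells, and leaving out called doublets gave 36 in the immature neutrophils. Without integration the 4 classes gave 24, 58, 3 and 0. The cause of these shifts was not tested.

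The replicate numbers pair no mice by the labels, and with 2 pairs the correlation of deviations was -0.096, 0.103, -0.0049, 0.077 and -0.082. With the number as a replicate block the counts were 3428, 240, 419, 37 and 78. Of these, 837, 8, 5, 1 and 57 were higher calls, among 15385, 11453, 9372, 10179 and 13491 genes tested. Of the members 6, 0, 0, 0 and 2 passed, all as higher.

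Of the fold changes of members under all alternatives, 418 kept direction and side of the threshold, 67 passed it newly, 12 no longer passed and 22 reversed. Lrg1 reversed in the immature neutrophils with no filter (0.034) and at resolution 0.5 (0.13), and Chil3 (-0.11) and Lrg1 (-0.69) reversed in stage II neutrophil-like cells without integration. The other reversals left out a library: over such fits Saa3 ranged from -1.02 to 3.57 over all barcodes, -1.54 to 4.06 in stage II neutrophil-like and -0.062 to 3.91 in monocyte-like cells, and Wfdc17 from -0.16 to 3.59, -1.41 to 1.64 and -1.49 to 2.20 in the same 3, and from -0.10 to 2.91 in the immature neutrophils and -2.01 to 6.47 in skeletal lineage-like cells. Hp, Orm1 and Lrg1 ranged from -0.091 to 0.27, -0.70 to 0.82 and -0.20 to 0.17 in the immature neutrophils. In stage II neutrophil-like cells Hp ranged from -0.15 to 1.21, Orm1 from -8.64e-05 to 3.51, Slpi from -0.066 to 1.67, Wfdc21 from -0.11 to 2.49 and Lrg1 from -0.13 to 1.40. The class with the highest mean level was the same for 8 of 8 genes in every alternative clustering and filter tried.

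With 2 libraries per group and 1 of them standing apart, a difference of 1 library and an effect of HLU cannot be told apart for most of these genes. Counts of Orm1 and of Lrg1 outside neutrophil-like cells were low, and the skeletal lineage-like values of HLU rest on 158 and 209 cells.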
